A study of Mus musculus with 11 samples.

Results

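The 7 genes described here encode epithelial keratins, namely Krt7, Krt8 and Krt80, which are type II chains, and Krt18, Krt19, Krt20 and Krt23, which are type I chains. They were taken by symbol from the 28692 genes of the count tables, which list 40 other keratin genes of the form Krt and a number. Their levels were followed across the nephron in kidneys of adult male C57Bl/6 mice. The 5 control libraries came from naive mice. In unilateral ischemia-reperfusion (UIR, 3 libraries) the vessels of the left kidney had been clamped for a time and released. In unilateral ureteral obstruction (UUO, 3 libraries) the left ureter had been tied off for good. Injured kidneys were taken about a month after surgery, and every suspension was made with a cold-active protease and run on the 10x Chromium 3′ platform. The control libraries carry the titles Ctrl, N1, N2, AN1 and AN2, the injured ones UIR, UIR1, UIR2, UUO, UUO1 and UUO2, and values per library are given in these orders.

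Keratins are the intermediate filament proteins of epithelia. A filament needs a type I chain together with a type II chain, and Krt8 with Krt18 is the pair of simple, single-layered epithelia. In the kidney these keratins are known from the collecting duct and the other distal segments, while the mature proximal tubule (PT) holds little, and Krt8, Krt18, Krt19 and Krt20 are used as markers of injured tubules. Krt7 and Krt19 also mark ductal epithelia, Krt20 is best known from gut and urothelium, and Krt23 and Krt80 are less studied members.

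The keratin genes lie in a type II array and a type I array, and the sequences shown here start at the pair of simple epithelia. In GRCm38.p6, the mm10 build, Krt80 (chr15:101348315-101370162), Krt7 (chr15:101412403-101427806) and Krt8 (chr15:101996711-102004342) were followed by Krt18 (chr15:102028216-102032026), the only type I gene among these 7 on that chromosome. Krt8 is on the minus strand and Krt18 on the plus strand, so both are read away from the 23873 bases between them. Krt20 (chr11:99428385-99438153), Krt23 (chr11:99477973-99493120) and Krt19 (chr11:100140810-100145926) lie in the type I array. RefSeq's table held a promoter for 5 of the 7, and not for Krt19 and Krt80. The 250 bases before the start are printed for Krt8 (chr15:102004343-102004592, minus strand) and Krt18 (chr15:102027966-102028215, plus strand), the partners whose levels rose together. For Krt20 (chr11:99438154-99438403, minus strand), the member found mainly in failed-repair cells, they are printed as well. Capitals mark a TATA box.
Krt8: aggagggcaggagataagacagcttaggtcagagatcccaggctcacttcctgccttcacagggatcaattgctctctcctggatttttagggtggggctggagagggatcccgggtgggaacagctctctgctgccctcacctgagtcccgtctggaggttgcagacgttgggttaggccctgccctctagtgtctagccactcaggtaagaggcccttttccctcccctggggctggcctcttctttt
Krt18: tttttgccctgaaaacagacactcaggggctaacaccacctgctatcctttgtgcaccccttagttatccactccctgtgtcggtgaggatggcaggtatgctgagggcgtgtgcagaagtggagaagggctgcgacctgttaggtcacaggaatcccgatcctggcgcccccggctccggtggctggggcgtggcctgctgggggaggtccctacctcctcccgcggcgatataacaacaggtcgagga
Krt20: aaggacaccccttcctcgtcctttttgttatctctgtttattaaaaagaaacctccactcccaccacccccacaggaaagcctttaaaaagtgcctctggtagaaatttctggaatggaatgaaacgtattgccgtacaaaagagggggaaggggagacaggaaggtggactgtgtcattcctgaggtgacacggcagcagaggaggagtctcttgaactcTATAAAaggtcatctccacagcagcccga

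Promoter motifs were searched on both strands of these windows, where no match overlapped another. The Krt20 promoter held 1 TATA box (TATAAA), from base -29 to -24 before the start, a motif found in 12.4% of the 32851 promoters of the table. Krt7 held 4 GC boxes (GGGCGG, in 32.7% of promoters), at -141 to -136, -128 to -123, -56 to -51 and -24 to -19. Krt8, Krt18 and Krt23 held none of these, nor a CCAAT box (CCAAT, 33.8% of promoters) or an AP-1 motif (TGANTCA, 6.75% of promoters). The GC content was 58.0% for Krt8 and 60.4% for Krt18, against 48.0% for Krt20 and a median of 52.4% over all promoters.

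After cell calling, 40570 cells were kept, 10268 from control, 16943 from UIR and 13359 from UUO libraries, with 49503312 to 117043590 UMIs (counted molecules) per library in all barcodes. The keratins and the naming markers took no part in clustering, and the classes were rebuilt from those markers. UMIs were summed per library and class where a library had at least 20 cells of it, and levels are given as CPM, the UMIs of a gene as a share of that sum on the usual counts-per-million scale, a scale on which one gene is compared between pools. The PT held 6994 control, 2657 UIR and 182 UUO cells, and the loop of Henle 278, 1108 and 461. Failed-repair cells were named from markers that include Vcam1, Havcr1, Ccl2 and Cp (15, 370 and 98 cells), gave no control pool and a single UUO pool (UUO1). Principal cells likewise gave a single UUO pool, UUO1, and connecting tubule gave none. Libraries shared few barcodes, at most 18 between 2 libraries.

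Some class markers moved with injury, and their part in the keratin values was not tested. In the loop of Henle 274 of 278 control cells fell in a cluster led by Egf, Wfdc15b and Slc12a1, whereas 871 of 1108 UIR and 338 of 461 UUO cells fell in one led by Slc12a1, Umod and Sostdc1. In the distal tubule 252 of 253 control cells lay in a cluster led by Slc12a3, and 283 of 317 UIR and 82 of 92 UUO cells in one led by Tmem52b and Slc12a3. The summed level of the 7 loop markers in the loop of Henle was 24472 to 31627 CPM in control, 15452 to 16910 in UIR and 13202 to 14680 in UUO. The median mitochondrial share of loop cells was 18.6 to 24.8% in control, 9.62 to 12.1% in UIR and 9.06 to 9.81% in UUO. In these pooled sums, fewer cells of a type and less RNA per cell cannot be told apart.

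In control kidneys the keratin levels set the collecting system apart from the PT and the glomerulus. Each class was compared with the other classes of the same libraries, with the library as a block, by the quasi-likelihood test of edgeR, and p-values were adjusted by Benjamini-Hochberg over all genes of the class that entered it (adjusted p). Of 40 pairs of gene and class tested, 22 passed an adjusted p of 0.05. In principal cells, the water- and sodium-reabsorbing cells of the collecting duct, all 5 tested members were higher. Among them were Krt7 by 2.30 ± 0.10 (log2, SE, n = 5 pools against 32), Krt8 by 1.91 ± 0.11 and Krt18 by 3.86 ± 0.13 (edgeR adjusted p of 8.8e-28, 5.7e-22 and 3.4e-32). Krt23 was higher by 6.21 ± 0.42. It entered this fit through the principal and intercalated pools where it is high. Its calls there count among the 22 but are a description, and no p is given. Intercalated cells, the acid-base cells of the duct, showed higher Krt7 (2.10 ± 0.10), Krt8 (0.95 ± 0.13), Krt18 (2.83 ± 0.16) and Krt23 (5.61 ± 0.50), and connecting tubule showed higher Krt7 (2.22 ± 0.10), Krt8 (0.88 ± 0.14), Krt18 (2.43 ± 0.18) and Krt23 (2.52 ± 0.83, edgeR adjusted p = 0.02, which was 0.094 without AN2). The share of all genes called in these fits was 39.8% for principal cells, 29% for intercalated cells and 24.4% for connecting tubule.

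The PT and podocytes, the filtering cells of the glomerulus, differed from each other in which chain they lacked. In the control PT, Krt7 was lower than elsewhere by a log2 difference of -5.72 ± 0.17 and Krt18 by -4.94 ± 0.63 (edgeR adjusted p of 1.5e-35 and 8e-10). Krt8 was 0.27 ± 0.10 above the mean log level of the other classes (edgeR adjusted p = 0.014), among them podocytes at 0 to 12.8 CPM. At 60.2 to 76.8 CPM it lay below thin limb (125 to 133), connecting tubule (88.5 to 169), intercalated (118 to 195) and principal cells (214 to 322). The call was lost without N2 or AN1 (0.18 to 0.24, edgeR adjusted p up to 0.21). It turned to -0.22 with library totals in place of TMM scaling. Control podocytes had lower Krt8 (-4.52 ± 0.27) and Krt18 (-5.39 ± 0.50), with an adjusted p of 1.6e-21 and 7.7e-14 by edgeR, and Krt7 differed by -0.01 (edgeR adjusted p = 1). With free RNA subtracted, Krt7 was called higher in control podocytes. Their Krt7 level was 161, 154, 144, 133 and 162 CPM, a narrow range. Of all genes, 69.1% were called in the PT and 59.3% in podocytes.

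The loop, the thin limb and the distal tubule held fewer of these differences. Krt7 was higher in the control loop of Henle (0.87 ± 0.12, edgeR adjusted p = 3.2e-08) and lower in the thin limb (-1.70 ± 0.27, edgeR adjusted p = 1.8e-06), where Krt18 was higher (2.16 ± 0.32, edgeR adjusted p = 2e-07). The thin limb Krt7 difference was -1.08 (adjusted p = 0.2) with free RNA subtracted. Krt19 in the control loop was called higher (2.66 ± 0.74, edgeR adjusted p = 0.0042), but rested on AN2, without which the value was 1.11 (adjusted p = 0.63). No member was called in the control distal tubule by edgeR, though with free RNA subtracted Krt7 was called higher there. Of all genes, 28.1% were called in the loop, 21.3% in the thin limb and 35.8% in the distal tubule.

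**Figure D1:**
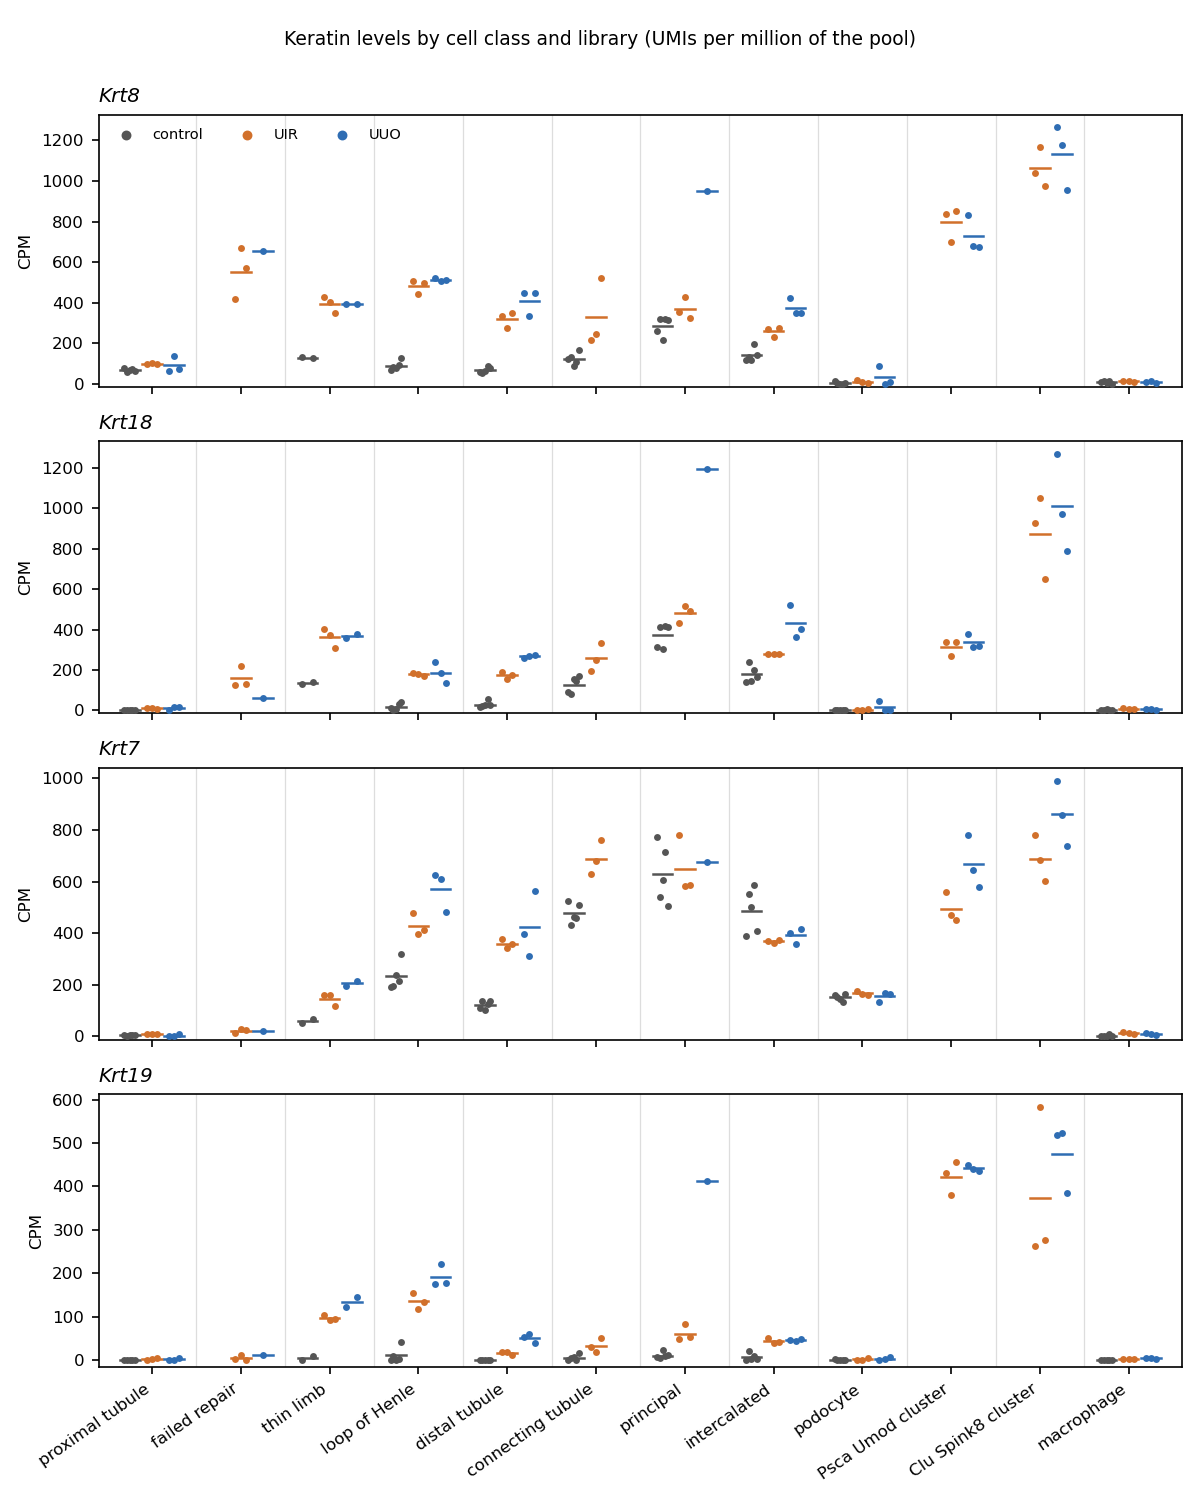
Level of Krt8, Krt18, Krt7 and Krt19 (CPM of the class's summed UMIs, 1 panel a gene) in each class of control, UIR and UUO libraries. Points are libraries and short lines are group means. Krt8 in the loop of Henle lies between 69.7 and 129 CPM in control libraries and between 440 and 523 in all injured ones.

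The question for the injured kidneys was which nephron segments raised their keratins. UIR was compared with control, and UUO with control, in each class, and both comparisons use the same control libraries. In UIR, 23 of 31 tested pairs of member and class passed an adjusted p of 0.05, 22 of them higher. In UUO 22 of 28 passed, 21 of them higher, and the gene that was lower was Krt7 in intercalated cells in both. These counts include Krt19 in the distal tubule and, for UUO, Krt23 in the thin limb, which had no UMI in the control pools. They also include Krt19 in the loop of Henle, thin limb and intercalated cells and, for UIR, in the PT, where most control pools were near 0. Krt18 in the PT, at most 1.86 CPM in control, is among them for both models. All of these entered the fits through the injured pools where they are high. The share of all genes called was 30.1% for UIR and 30.6% for UUO in the loop of Henle, 34.6% and 35% in the distal tubule, 6.99% and 6.74% in the thin limb, 12.9% and 5.8% in the PT, 14.2% and 25.9% in intercalated cells, 5.83% and 23.2% in principal cells and 1.47% and 2.09% in podocytes, and was 1.03% for UIR in connecting tubule.

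Krt8, the type II chain of the simple epithelial pair, rose in loop of Henle cells after either injury. Its level was 69.7, 83.6, 77.1, 90.6 and 129 CPM in control, 507, 440 and 495 in UIR and 523, 504 and 510 in UUO. All injured libraries lay above the controls and close to one another. The log2 fold change was 2.15 ± 0.16 in UIR (SE, n = 3 against 5, edgeR adjusted p = 5.3e-10) and 2.26 ± 0.16 in UUO (n = 3 against 5, edgeR adjusted p = 2.7e-10). The share of loop cells with a Krt8 UMI went from a median of 32.7% in control to 80.6% in UIR and 78.6% in UUO, and after thinning every cell to 1000 UMIs from 6.90% to 35.8% and 42.6%, with 20, 23 and 30 shallower cells left out. Macrophages of the same libraries, which should lack keratins, had thinned medians of 0%, 1.07% and 0.936%.

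In the distal tubule, the segment of the sodium-chloride cotransporter Slc12a3, Krt8 was 60.2, 55.5, 64.0, 86.2 and 78.3 CPM in control, 333, 276 and 348 in UIR and 449, 334 and 446 in UUO. No injured library overlapped the controls. The fold changes were 1.89 ± 0.16 and 2.20 ± 0.17 on the log2 scale (edgeR adjusted p of 4.7e-10 and 5.4e-11). Markers of principal cells moved in the same pools, with a summed level over the 8 markers of 53.3 to 334 CPM in control, 2160 to 2920 in UIR and 1492 to 2189 in UUO, and their part in the result was not tested. Both the loop and the distal values passed the test under every alternative tried that kept the class.

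The thin limb and the collecting system showed smaller changes of Krt8. In the thin limb the level was 133 and 125 CPM in the control libraries Ctrl and AN2, 430, 402 and 349 in UIR and 392 and 396 in UUO and UUO1 (log2 fold change 1.56 ± 0.23 and 1.54 ± 0.24, edgeR adjusted p of 0.00011 and 0.00026). Other markers moved in these thin limb pools, the 8 of the thin limb itself from 8460 to 8790 CPM in control to 4038 to 4491 in UIR and 3018 to 3919 in UUO, and the 7 of the loop of Henle from 263 to 386 CPM to 479 to 1273 and 826 to 834. Urothelial markers stood at 4.04 to 41.7 CPM in control, 2.52 to 325 in UIR and 9.97 to 13.1 in UUO, and the part of these cells in the thin limb keratins was not tested. In connecting tubule it rose from 123, 134, 88.5, 105 and 169 CPM to 215, 246 and 520 in UIR (1.27 ± 0.20, edgeR adjusted p = 5.2e-05), with UIR2 far above UIR and UIR1. In intercalated cells it was 118, 132, 118, 195 and 140 CPM in control, 271, 231 and 276 in UIR and 421, 347 and 351 in UUO (0.70 ± 0.16 and 1.09 ± 0.16, edgeR adjusted p of 0.003 and 4.9e-06). The UIR call was lost in 5 of the alternatives in intercalated cells and in 3 in connecting tubule.

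Principal cells, which held the keratins in control kidneys, gave no call for Krt8 in UIR. The level was 261, 322, 214, 321 and 314 CPM in control and 355, 429 and 326 in UIR (0.30 ± 0.15, edgeR adjusted p = 0.33). The single UUO pool stood at 949 CPM (1.64 ± 0.20, n = 1 against 5, edgeR adjusted p = 9.6e-07, with the lone pool assumed to vary like the other groups). That pool held fewer principal cell transcripts, with the 8 principal markers at 3711.9 CPM against 19004 to 27423 in control and 13757 to 16002 in UIR. Of the 66 principal cells of UUO libraries, 55 lay in a cluster led by Aldh1a3 and Spink8 that held 4 control and 19 UIR cells. At a resolution of 2 a cluster with these leading genes and cell counts met no class's criteria and stayed unnamed. Its mesothelial marker score was 0.214 and its principal score 0.199.

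In the PT the change of Krt8 was the smallest of those called in UIR. The level was 76.8, 60.2, 67.9, 72.9 and 64.0 CPM in control and 97.0, 100.2 and 99.9 in UIR, without overlap (0.54 ± 0.12, edgeR adjusted p = 0.0051). UUO libraries, with 44 to 92 PT cells each, stood at 61.4, 136 and 75.2 CPM and overlapped the controls (0.30 ± 0.22, edgeR adjusted p = 0.5). Within the PT the UIR change was 0.83 ± 0.21 in S1, 0.52 ± 0.11 in S2 and 0.44 ± 0.18 in S3 (edgeR adjusted p of 0.022, 0.0053 and 0.21). The share of PT cells with a Krt8 UMI, thinned to 1000 UMIs, was 6.05 to 8.23% in control and 11.2 to 11.5% in UIR, where unthinned shares were 25.1 to 31.4% and 26.6 to 29.2%. Failed-repair markers in these PT pools summed to 17.4 to 29.8 CPM in control, 87.4 to 165 in UIR and 228 to 578 in UUO, and their part was not tested. Krt8 in PT cells stood at 0.705 to 2.73 times its level in the empty droplets of the library in control and 0.487 to 1.09 times in UIR, and the UIR call was lost in 4 alternatives, those with other mitochondrial limits and those with free RNA subtracted (lowest log2 fold change 0.28, highest adjusted p 0.615).

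Whether the distal classes changed more than the PT was tested as a difference of differences. The distal classes weighed equally, and in UUO their principal cells are the single pool UUO1 described above. Loop of Henle, distal tubule, principal and intercalated cells together gained 0.78 ± 0.13 more Krt8 than the PT in UIR and 1.68 ± 0.23 more in UUO (log2, edgeR adjusted p of 3e-06 and 8.8e-08). Krt7 and Krt18 went the other way in UIR, with -0.92 ± 0.28 and -1.64 ± 0.32 (edgeR adjusted p of 0.013 and 6.2e-05), where both are near 0 in the control PT, and the Krt7 value turned to 0.894 (edgeR adjusted p = 0.781) with free RNA subtracted. Without N1 or without UIR1 the Krt7 difference was no longer called. With loop of Henle and distal tubule alone and with a 15% mitochondrial limit neither was called, and the Krt18 value shrank to between -0.53 and -0.04. Krt19 was not called (0.71 ± 1.26 and 1.97 in UIR and UUO). Of all genes 18.6% were called in this test in UIR and 9.71% in UUO, with median differences of 0.035 and 0.218.

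**Figure D2:**
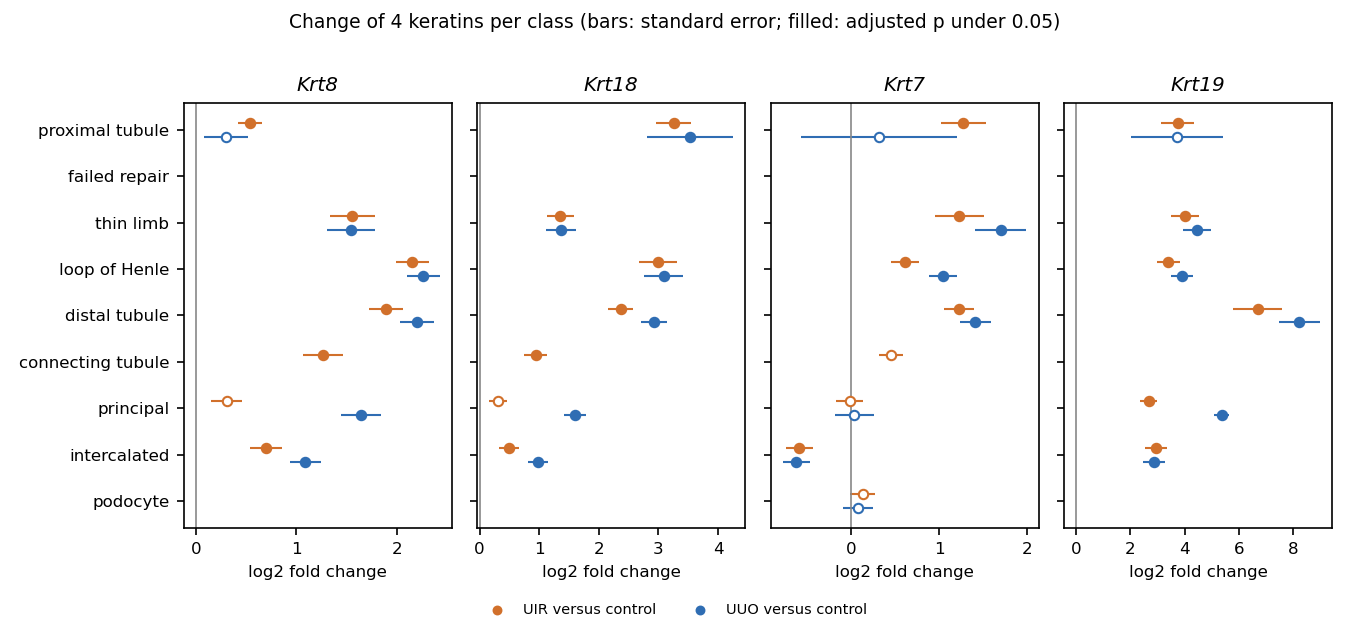
Log2 fold change against control of Krt8, Krt18, Krt7 and Krt19 in each class, for UIR and UUO, with bars of 1 standard error. Filled points passed an edgeR adjusted p of 0.05. Filled Krt19 points other than those of principal cells, and filled Krt18 points of the PT, come from fits that the gene entered through the injured pools. Krt8 and Krt18 are filled in the distal tubule and loop of Henle of both models, from 1.89 to 3.09, and Krt7 lies below 0 in intercalated cells.

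Krt18, the type I partner of Krt8, rose in the same segments. In the loop of Henle the level was 12.2, 0, 5.14, 30.2 and 39.9 CPM in control, 185, 179 and 172 in UIR and 240, 183 and 137 in UUO. Controls spread widely, and none reached an injured library. The log2 fold change was 2.99 ± 0.32 in UIR and 3.09 ± 0.32 in UUO (n = 3 against 5 in each, edgeR adjusted p of 9.1e-08 and 5.7e-08), and it passed in 28 of 28 alternatives in UIR, over a range of 2.07 to 5.50.

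Distal tubule Krt18 was 17.7, 20.2, 24.8, 56.6 and 25.0 CPM in control, 192, 157 and 173 in UIR and 258, 270 and 274 in UUO. All UUO libraries lay above those of UIR. The fold changes were 2.37 ± 0.21 and 2.93 ± 0.21 (log2, edgeR adjusted p of 5.8e-10 and 2.4e-11), and UUO against UIR gave 0.56 ± 0.17 (edgeR adjusted p = 0.23). In cells thinned to 1000 UMIs, a Krt18 UMI was found in a median of 1.69% of control, 15.7% of UIR and 24.2% of UUO distal cells.

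In the thin limb Krt18 was 129 and 143 CPM in control, 404, 372 and 311 in UIR and 358 and 379 in UUO, changes of 1.36 ± 0.23 and 1.37 ± 0.25 (log2, edgeR adjusted p of 0.00049 and 0.00098) that were each lost in 3 alternatives (down to 0.85 and 0.77). In intercalated cells it was 140, 239, 146, 202 and 166 CPM in control, 281, 278 and 281 in UIR and 521, 365 and 405 in UUO. Its UUO change was 0.98 ± 0.17 (edgeR adjusted p = 4.2e-05), and the UIR change of 0.49 ± 0.17 (edgeR adjusted p = 0.0495) was lost in 16 of 27 alternatives. Connecting tubule went from 79.7 to 172 CPM in control to 193, 250 and 331 in UIR (0.94 ± 0.20, edgeR adjusted p = 0.0059), a call lost in 6 alternatives. Principal cells had 306 to 418 CPM in control and 432 to 516 in UIR (0.31 ± 0.14, edgeR adjusted p = 0.26), and 1196 in the single UUO pool (1.61 ± 0.19, edgeR adjusted p = 5.5e-07).

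The PT calls for Krt18, Krt7 and Krt19 rested on levels near those of macrophages. Krt18 in the PT was 0.413 to 1.86 CPM in control and 10.5, 12.1 and 7.48 in UIR (log2 fold change 3.25 ± 0.30). Macrophages of the same UIR libraries held 11.8, 8.37 and 6.46 CPM, and those of 4 of 5 control libraries held 0. Krt18 entered the PT fit through the injured pools, so no p is given for it against control. A Krt18 UMI was found in 2.94 to 5.76% of PT cells and 2.17 to 3.1% of macrophages of UIR libraries, at median depths of 1478 to 1970 and 1017.5 to 1244 UMIs. Krt7 in the PT of UIR libraries was 6.91 to 8.16 CPM (1.27 ± 0.26, edgeR adjusted p = 0.0017) against 10.6 to 17.4 in macrophages. Krt19 in the PT of UIR libraries was 1.38 to 4.08 CPM (3.74 ± 0.60) against 2.15 to 3.91 in macrophages. In the control PT it was at most 0.338 CPM and entered the fit through the injured pools, so no p is given. With free RNA subtracted by either profile the Krt18 change in UIR was 3.89 and 4.95, and Krt7 and Krt19 gave no value in the PT. Of 131 UIR PT cells with Krt18, 67 had Krt8 (51.1%, against 27.0% of the others), and of 90 macrophages with Krt18, 4 had it (4.44% against 3.58%), a description that depth within a cell can set. In UUO the PT change of Krt18 was 3.53 ± 0.72, with libraries at 0, 16.1 and 15.6 CPM. That call was lost in 6 alternatives, among them leaving out UUO1 or UUO2.

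Krt8 and Krt18 were compared within a pool as the log2 ratio of their UMIs, which are 3′ tag counts and so need no gene length. The ratio lay between -0.85 and -0.05 in control intercalated cells and between -0.51 and -0.27 in control principal cells, so the type I partner had slightly more tags there. It was 1.59 and 1.69 in the control loop of Henle (AN1 and AN2), 1.30 to 1.53 in UIR and 1.12 to 1.90 in UUO. In the PT it was 5.37 in Ctrl and 3.05 to 3.74 in UIR, far on the side of Krt8. Failed-repair cells stood at 1.74, 1.60 and 2.12 in UIR and 3.46 in UUO1.

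None of the 10 exact permutation tests of this ratio between groups, two-sided, gave a p under 0.05. With these numbers of pools no adjusted p over the 10 tests could fall under 0.05, so the adjusted values decide nothing. The smallest p was that of the distal tubule, whose groups overlapped, with 1.77, 1.37, 0.61 and 1.65 in control libraries and 0.80, 0.31 and 0.70 in UUO (difference -0.74, exact permutation p = 0.171, where the smallest possible was 0.0571, adjusted p over the 10 tests of 0.5 or more). With 5 against 3 libraries the smallest p these tests can give is 0.0357, and in the loop and thin limb too few pools had the 10 UMIs of each gene that the ratio required for a p under 0.05. UIR and control did not overlap in the loop (difference -0.21) or the thin limb (0.20), nor UUO and control in the thin limb (0.17), and each had the smallest p its design allows (exact permutation p of 0.2, 0.2 and 0.333). Thin limb pools ranged from -0.19 to 0.17 over all 7 pools, and principal pools from -0.60 to -0.27.

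**Figure D3:**
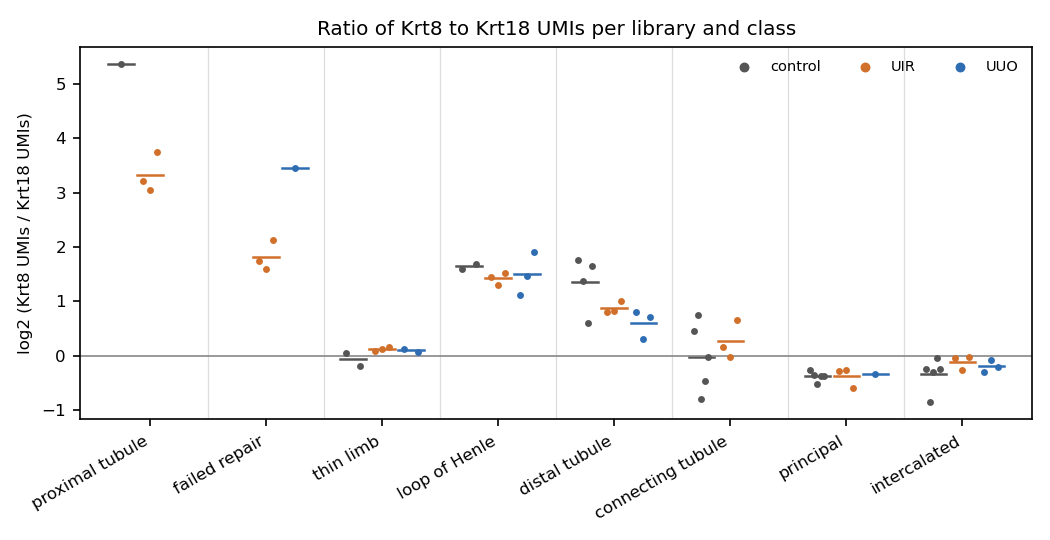
Log2 ratio of Krt8 to Krt18 UMIs per library in each class, for pools with at least 10 UMIs of each. Points are libraries. Principal and intercalated pools sit below 0, thin limb pools at about 0, loop of Henle and failed-repair pools above 1, and PT pools above 3.

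Within cells the partners tended to be found together. In the UIR loop of Henle 653 of 703 cells with a Krt18 UMI also had a Krt8 UMI (92.9%), against 63.0% of the cells without Krt18. In the UIR distal tubule it was 200 of 218 (91.7%) against 68.7%. Deeper cells have more chances of a UMI of either gene, so these shares are a description of the libraries.

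Krt7, a type II chain of ductal epithelia, rose in the loop and distal tubule and fell in intercalated cells. In the loop it was 192, 195, 239, 214 and 319 CPM in control, 478, 397 and 412 in UIR and 624, 609 and 480 in UUO. Its fold changes were 0.61 ± 0.16 and 1.05 ± 0.16 (log2, edgeR adjusted p of 0.0047 and 1.6e-05), and the UIR call was lost in 2 alternatives (0.42 and 0.55). In the distal tubule it was 111, 136, 103, 124 and 138 CPM in control, 378, 344 and 357 in UIR and 397, 310 and 564 in UUO, with changes of 1.23 ± 0.17 and 1.41 ± 0.18 (edgeR adjusted p of 1.5e-06 and 2.5e-07). No injured library of either segment overlapped the controls. When the distal tubule, connecting tubule and principal cells were pooled with the cluster led by Clu and Spink8, an alternative chosen after seeing the data, the UIR change was 0.16 (edgeR adjusted p = 0.389).

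In intercalated cells Krt7 was 389, 551, 501, 585 and 409 CPM in control, 369, 361 and 372 in UIR and 401, 360 and 417 in UUO. All UIR libraries lay below the controls, and UUO libraries overlapped Ctrl and AN2. Markers of principal cells moved in the same pools, with a sum over the 8 markers of 1692 to 3702 CPM in control, 517 to 699 in UIR and 396 to 661 in UUO, and their part was not tested. Of 243 control cells 151 lay in a cluster with a median of 1196 UMIs, and of 219 UUO cells 167 lay in another, which held 54 control cells. The log2 fold changes were -0.59 ± 0.15 and -0.62 ± 0.15 (edgeR adjusted p of 0.0085 and 0.0029), lost in 5 and 3 of the alternatives. Thus Krt7 and Krt8 went opposite ways in the same pools. The thin limb showed higher Krt7, at 52.6 and 66.0 CPM in control, 161, 159 and 118 in UIR and 193 and 216 in UUO (1.23 ± 0.28 and 1.70 ± 0.29, edgeR adjusted p of 0.0072 and 0.00068). The UIR call was lost in 6 alternatives, among them without Ctrl (lowest value 0.22, adjusted p up to 0.85), and the UUO call in 2.

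Krt7 did not pass the test in principal cells, connecting tubule or podocytes. Principal cells had 774, 538, 607, 713 and 507 CPM in control, 779, 583 and 587 in UIR (-0.02 ± 0.15, edgeR adjusted p = 0.98) and 674 in UUO1 (0.03 ± 0.22, edgeR adjusted p = 0.94). Connecting tubule had 433 to 523 CPM in control and 629 to 759 in UIR, which did not overlap (0.45 ± 0.14, edgeR adjusted p = 0.11). In podocytes, where Krt7 was the sole keratin with a clear level, it was 133 to 162 CPM in control, 177, 164 and 161 in UIR and 134, 169 and 164 in UUO (0.13 ± 0.14 and 0.08 ± 0.17, edgeR adjusted p = 0.9 for both). A p over 0.05 does not show equality, and the ranges overlapped. The podocyte level was 2.49 to 9.08 times that of the empty droplets in control libraries and 0.918 to 1.5 times in UUO. Of 167 control podocytes with a Krt7 UMI, 9 had a Krt8 UMI. Krt8 in podocytes rested on few UMIs, at 0 to 12.8 CPM in control, 4.97 to 17.7 in UIR and 89.0, 0 and 6.56 in UUO, where 89.0 CPM is 2 UMIs. Macrophages of UIR libraries reached 14.8 CPM.

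Krt19, a type I chain that lacks most of the tail domain, was near 0 in control tubules and rose in most classes. In the loop of Henle it was 0, 9.29, 0, 2.75 and 42.2 CPM in control, 155, 119 and 135 in UIR and 176, 222 and 177 in UUO. Its log2 fold changes were 3.40 ± 0.42 and 3.92 ± 0.41, with no p given, since Krt19 entered this fit through the injured pools. The loop level was 3.23 to 6.92 times that of the empty droplets in UIR and 1.83 to 3.22 times in UUO. Loop cells with Krt19 mostly held Krt7 as well, 518 of 550 in UIR (94.2%) against 71.9% of the loop cells without it. Urothelial markers were also higher in the loop pools, with a sum over 7 markers of 0 to 10.3 CPM in control, 30.3 to 77.4 in UIR and 61.6 to 91.0 in UUO and 4, 2 and 4 of the 7 at 0, and their part was not tested.

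No control library had a Krt19 UMI in the distal tubule. Levels were 18.7, 18.7 and 11.7 CPM in UIR and 54.5, 60.5 and 40.2 in UUO. Over the groups this is at least 15.4-fold higher in UIR and at least 46.5-fold higher in UUO, set against a floor of 3 counts over the control pools. Krt19 entered this fit through the injured pools alone, so no p is given for it against control. These levels were 0.363 to 1.09 times those of the empty droplets in UIR and 0.566 to 0.879 times in UUO. UUO exceeded UIR by 1.54 ± 0.28 (log2, n = 3 against 3). Entry of Krt19 into the fit needed the UUO pools, where it is high, so no p is given for this difference either. The call was lost when predicted doublets were kept and without UUO1 (1.14 to 1.43).

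The thin limb and the duct cells shared the change of Krt19. Thin limb pools had 0 and 10.4 CPM in control, 104, 92.1 and 95.9 in UIR and 123 and 146 in UUO (log2 fold changes 4.02 ± 0.51 and 4.46 ± 0.52). Intercalated cells had 0, 22.0, 1.94, 8.58 and 2.94 CPM in control, 51.8, 39.6 and 41.4 in UIR and 46.8, 44.4 and 48.2 in UUO (2.95 ± 0.41 and 2.87 ± 0.41). In the thin limb and intercalated cells Krt19 passed the low-count filter through the injured pools, so no p is given. Intercalated levels were 1.08 to 2.32 and 0.485 to 0.875 times those of the empty droplets in UIR and UUO. In principal cells Krt19 was the only member called in UIR, at 6.88, 4.13, 22.9, 8.71 and 11.2 CPM in control against 47.7, 82.7 and 52.9 (2.68 ± 0.31, edgeR adjusted p = 7e-06), and it stood at 413 in UUO1 (5.36 ± 0.29, edgeR adjusted p = 2.2e-12).

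Failed-repair cells, a term for PT cells that stay dedifferentiated after injury, carried Krt8, Krt18 and Krt20. They were compared with the other tubular classes of UIR and UUO libraries (4 pools against 36, library as a block), a fit in which 50.5% of all genes were called. Krt20 entered the fit through the failed-repair pools, where nearly all of its UMIs lie (229 in UIR and 134 in UUO1), so its levels are given below as a description with no test. Krt8 was higher by 0.85 ± 0.14 (edgeR adjusted p = 3.6e-06), at 416, 671 and 572 CPM in UIR and 655 in UUO1. Krt7 was lower by -3.27 ± 0.18, Krt19 by -2.45 ± 0.38 and Krt23 by -3.17 ± 0.69 (edgeR adjusted p of 1.9e-19, 6.8e-07 and 0.00018). With free RNA subtracted the Krt7 and Krt19 values were -2.76 and -2.08 and not called (adjusted p = 1). Krt18 gave -0.45 ± 0.20 (edgeR adjusted p = 0.059). These cells also held PT markers, with a sum over 14 markers of 3830 to 7785 CPM in UIR.

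Krt20 itself was 16.0, 48.4 and 57.1 CPM in failed-repair cells of UIR libraries and 88.8 in UUO1. It was 0 in every pool of the loop of Henle, distal tubule, connecting tubule, principal cells and podocytes, at most 3.32 CPM in the thin limb, and in the PT at most 0.923 CPM in UIR and 5.18 in UUO2, which is 2 UMIs. Outside these classes, 5 and 3 Krt20 UMIs were found in the 1 and 2 urothelial-like cells of Ctrl and N1, and 7 in parietal-like cells of UUO1. In failed-repair cells 10.9 to 27.7% had a Krt20 UMI in UIR libraries and 41.4% in UUO1, and 1.7 to 5.26% and 10.6% after thinning to 1000 UMIs. UUO and UUO2, with 11 and 17 failed-repair cells, gave no pool. With failed-repair and thin limb cells merged, the share over the UUO libraries ran from 0 to 32.3% with a median of 3.23%. Of the 74 UIR cells with Krt20, 71 also held Krt8. This was 95.9%, against 80.4% of the other failed-repair cells. In UUO 29 of 30 did (96.7% against 75%), most of these cells from UUO1. Between UUO1 and UIR no member was called in failed-repair cells (0.209% of all genes were), with a lone UUO pool assumed to vary like the other groups, and the values were 0.88 ± 0.31 for Krt20 (edgeR adjusted p = 0.52) and -1.52 ± 0.36 for Krt18 (edgeR adjusted p = 0.23). Krt18 was 125, 221 and 132 CPM in UIR and 59.7 in UUO1, where it stood at 0.528 times the level of the empty droplets.

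Thin limb pools of the injured kidneys differed from the other tubular classes in another set of chains. Krt18 was higher by 0.83 ± 0.17, Krt19 by 1.31 ± 0.23 and Krt23 by 1.25 ± 0.32 (5 pools against 31, edgeR adjusted p of 7.3e-05, 1.4e-05 and 0.0016), and Krt7 was lower by -0.84 (edgeR adjusted p = 5.8e-07), which turned to 0.28 with free RNA subtracted. Of all genes, 37.9% were called in that fit. In the thin limb itself, neither control pool (Ctrl and AN2) had a Krt23 UMI, UIR pools had 3.77, 13.3 and 8.64 CPM and UUO pools 17.4 and 23.3. The control libraries N1 and N2, with 9 and 15 thin limb cells too small for a pool, held 2 and 4 Krt23 UMIs (19.6 and 39.1 CPM), within or above the range of the injured pools. The call in UUO did not use those cells and was lost in 11 of 21 alternatives, so the levels are given as a description.

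Among the named classes Krt23 stood highest in the collecting duct. The unnamed cluster led by Clu and Spink8 also held it, at 31.3 to 79.8 CPM in UIR and 39.9 to 69.1 in UUO. Principal cells had 44.0, 20.6, 26.7, 43.6 and 60.9 CPM in control, 47.7, 60.3 and 57.6 in UIR (0.39 ± 0.24, edgeR adjusted p = 0.45) and 132 in UUO1 (1.60 ± 0.27, edgeR adjusted p = 8e-05). Control and UIR overlapped, and the single UUO pool lay above both. Intercalated cells had 12.5, 47.7, 19.4, 42.9 and 13.2 CPM in control, 27.9, 24.9 and 24.3 in UIR and 42.7, 32.3 and 27.8 in UUO (-0.06 and 0.17 ± 0.31, edgeR adjusted p of 0.94 and 0.75). Distal tubule pools had no Krt23 UMI in control and at most 7.30 CPM in injured libraries, and all 11 podocyte pools stood at 0.

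Krt80 was too low to be tested in any named class between groups. Its highest levels were in intercalated cells, at 16.7, 0, 9.71, 6.43 and 11.8 CPM in control, 3.98, 7.38 and 12.6 in UIR and 10.7, 4.04 and 6.57 in UUO, where the groups overlapped. In the loop of Henle it was 0 in the 5 control libraries, 0.982, 0.528 and 0.780 CPM in UIR and 1.85, 1.37 and 1.81 in UUO, where 3 counts over the control pools set a floor of 1.52 CPM, so the UIR levels lie under it and no fold is given. Failed-repair and podocyte pools stood at 0 throughout.

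**Figure D4:**
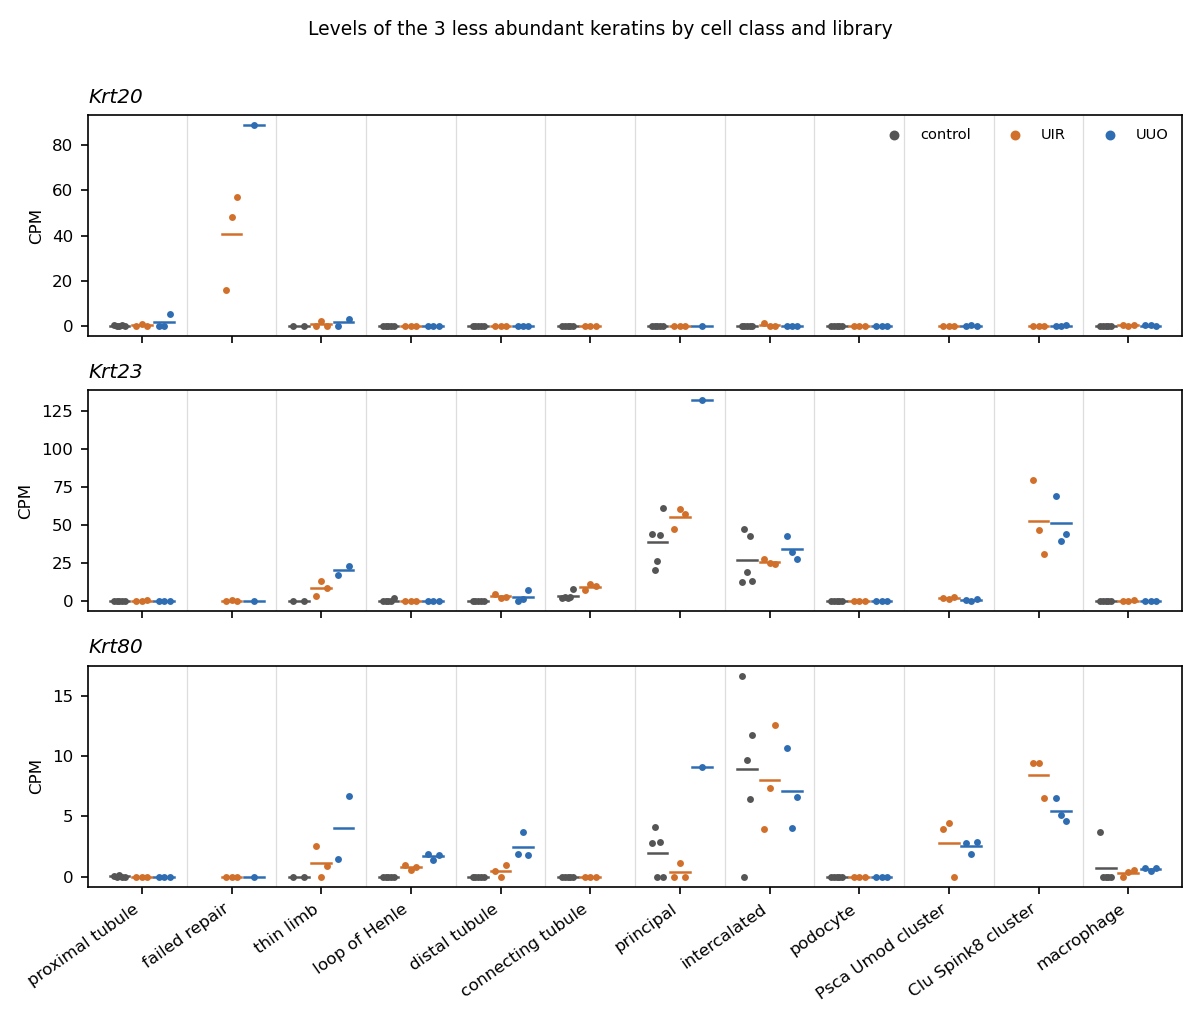
Level of Krt20, Krt23 and Krt80 (CPM) in each class of control, UIR and UUO libraries. Points are libraries and short lines are group means. Among the classes plotted, Krt20 points stand above 6 CPM in failed-repair cells alone, from 16.0 to 88.8, and Krt23 reaches 132 CPM in the UUO pool of principal cells.

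UUO and UIR were then compared directly, to see whether the obstructed and the reperfused kidney differed in keratins. Of 33 tested pairs of member and class 5 were called, namely Krt19 in the distal tubule and Krt8 (1.34 ± 0.22), Krt18 (1.30 ± 0.20), Krt19 (2.69 ± 0.25) and Krt23 (1.21 ± 0.28) in principal cells (edgeR adjusted p of 0.00011, 7.8e-05, 8.1e-08 and 0.0039). The principal cell values rest on the library UUO1 alone, so they have no UUO replicate, and without it none of the pairs was called. Krt19 in the distal tubule entered its fit through the UUO pools, where it is high. Most UUO principal cells lay in the cluster led by Aldh1a3 and Spink8 described above. With each cell named on its own, the Krt8 difference in principal cells was 0.63 and not called. The Krt23 call was lost in 3 alternatives, with values down to 0.50. Of all genes 14.2% were called in principal cells, 2.31% in intercalated cells, 0.782% in the distal tubule, 0.278% in the loop of Henle, 0.128% in the PT, 0.125% in the thin limb and 0.121% in podocytes.

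Some epithelial clusters of injured kidneys met no class's criteria and stayed unnamed, and held high keratin levels. The first, led by Psca and Mmp7 and called the Psca Umod cluster in the plots, had 245 UIR and 362 UUO cells and no control cell. Its Krt8 was 839, 697 and 853 CPM in UIR and 832, 682 and 673 in UUO, and its Krt19 430, 381 and 455 and 449, 441 and 436. The second, led by Clu and Spink8, had 4 control, 339 UIR and 534 UUO cells, with Krt8 at 1041, 1167 and 977 CPM in UIR and 1264, 1180 and 954 in UUO and Krt18 at 925, 1049 and 649 and 1269, 974 and 789. No member was called between UUO and UIR in either by edgeR, where 0.174% of all genes were called in the first and 0.134% in the second. Keratins were among the leading genes of these clusters although they took no part in clustering, so these levels are a description.

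By the pattern of levels over the 83 epithelial pools, each main keratin stood near different genes. Krt8 was most like Ly6e (Pearson r of 0.924 on log2(CPM + 5)), Syne2 (0.915) and Ptprf (0.903), and Krt18 was close to Cldn7 (0.918) and Cldn4 (0.912), which encode tight junction claudins. Krt7 was most like Sort1 (0.913), Sh3bp4 (0.901) and Casz1 (0.896), and Krt19 most like Cldn3 (0.860), Lcn2 (0.832) and Sdc1 (0.803). Among the members, Krt8 and Krt18 had r of 0.83, Krt18 and Krt19 0.70, Krt7 and Krt18 0.63, and Krt7 and Krt8 0.27. Pools of one library share its depth and free RNA, and candidates were 6655 genes.

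The genes that anchor keratins were counted next, to be read beside the share of all genes called, which was 34.6 to 35% in the distal tubule and 30.1 to 30.6% in the loop. Of the listed plakins, desmosomal and hemidesmosomal genes (20 listed, 19 in the tables), 10 rose and 1 fell of 16 tested in the UIR loop (median log2 fold change 1.05, against 0.020 over all genes), and 10 rose and 2 fell in UUO (1.12 against 0.025). In the distal tubule 12 rose and 2 fell of 17 in both models (0.97 and 1.02, against 0.017 and 0.029). In the loop the largest change was that of Itgb4, the β4 integrin of hemidesmosomes (2.80 and 2.94). In the distal tubule the plakins Ppl (3.40) and Plec (3.34) led in UIR, and Itgb4 (3.71) and Ppl (3.62) in UUO. In the PT 5 of 15 rose in UIR and 3 in UUO (12.9% and 5.8% of all genes were called), with Dsp, the desmosomal plakin, at 3.32 in UIR. The thin limb had 2 of 16 higher in each model (6.99% and 6.74% of all genes), among them Itga6, the α6 integrin that pairs with β4, at 3.55 in UIR.

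In principal cells 1 rose and 2 fell of 18 in UIR and 5 rose and 2 fell in UUO (5.83% and 23.2% of all genes were called), with Evpl, a plakin, lower at -1.52 and -1.41. In intercalated cells 1 fell of 18 in UIR, which was Dsp (-0.51, edgeR adjusted p = 0.042), and 3 rose and 1 fell in UUO (14.2% and 25.9% of all genes). None of 8 in connecting tubule and none of 7 in podocytes were called by edgeR. Few of all genes were called there, 1.03% in connecting tubule in UIR and 1.47% and 2.09% in podocytes in UIR and UUO.

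Of the transcription factors listed as keratin regulators, 6 of 11 tested rose in the loop of Henle in UIR (median 0.66 against 0.020 over all genes), and 5 rose and 1 fell in UUO (0.58), where 30.1% and 30.6% of all genes were called. Those of largest change were Klf5, a factor of proliferating epithelium (3.77 and 3.54), and Elf3, an epithelial ETS factor (2.49 and 2.78). In the distal tubule 8 and 7 of 11 rose (0.61 and 0.68, with 34.6% and 35% of all genes called), led by Ehf, another epithelial ETS factor (5.73 and 5.51). In intercalated cells 4 rose and 1 fell of 12 in UIR and 5 rose and 1 fell in UUO (14.2% and 25.9% of all genes were called), with Klf4 at 4.25 and 5.12. In the thin limb 3 of 10 rose in each model (6.99% and 6.74% of all genes were called), in the PT 5 and 2 of 11 (12.9% and 5.8%), and in principal cells 2 of 14 in UIR, with 5 higher and 2 lower in UUO (5.83% and 23.2%). None of 8 in connecting tubule (1.03% of all genes called in UIR) and none of 3 in podocytes (1.47% and 2.09%) were called.

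Tubular injury genes rose broadly, the PT included. Of 20 listed, 19 rose in the PT in UIR and 17 in UUO (median 3.31 and 4.70), 16 and 17 of 17 tested rose in the loop of Henle (2.52 and 2.67), and all 17 tested rose in the distal tubule in both models (2.53 and 2.46). Lcn2, which binds siderophores, was at 5.52 and 5.83 in the loop. The thin limb had 12 and 13 of 17 higher and 1 lower (6.99% and 6.74% of all genes called), intercalated cells 15 and 16 of 18 higher, with 1 lower in UUO (14.2% and 25.9%), and principal cells 9 and 15 of 17 higher and 1 lower (5.83% and 23.2%). Connecting tubule had 6 of 12 higher (1.03%) and podocytes 2 and 1 of 10 (1.47% and 2.09%). The same share was 12.9% and 5.8% in the PT, 30.1% and 30.6% in the loop and 34.6% and 35% in the distal tubule, and the median over all genes lay between -0.08 and 0.03 in these 3 classes. In the PT, macrophage markers summed to 7.3 to 12.2 CPM in control, 89.8 to 152 in UIR and 153 to 1044 in UUO. Their part in the PT values was not tested, nor that of the failed-repair markers given above or of free RNA.

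Of the other intermediate filament genes few could be tested. Vim, the filament protein of mesenchymal cells, rose by 3.52 in the PT in UIR (edgeR adjusted p = 4.3e-09) and 4.35 in UUO, where 3 and 2 of 5 tested rose (12.9% and 5.8% of all genes). Stromal markers in these PT pools summed to 2.73 to 5.49 CPM in control, 17.7 to 27.9 in UIR and 24.1 to 246 in UUO, and their part was not tested. Lmna, which encodes lamins A and C, was the only one of 4 called in the loop of Henle, at 1.04 in both models (30.1% and 30.6% of all genes called), and in the thin limb, at 1.27 and 1.21 (6.99% and 6.74%). In podocytes Des, a muscle filament protein also used as a marker of podocyte injury, rose by 1.85 in UIR (edgeR adjusted p = 0.0022). It was the only one of 4 called there in UIR (1.47% of all genes), and none was called in UUO (2.09%). Des is also one of the stromal naming markers. In podocyte pools these summed to 388 to 1074 CPM in control, 703 to 851 in UIR and 663 to 1424 in UUO, and their part was not tested. Nefl, a neurofilament, rose by 4.58 and 5.16 in the distal tubule, 1 of 2 tested (34.6% and 35% of all genes). Of the 40 other keratins only Krt10 could be tested, and it was called in no class by edgeR.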

How the data were processed

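Single-cell RNA libraries of mouse kidney were analysed from the raw UMI counts that the authors deposited for every gene and barcode, empty droplets included, with no normalization and no free-RNA or doublet correction. The submitters' processing notes name Cell Ranger 3.1.0 and mm10. The members and gene lists were chosen with earlier results of these data known, and the libraries are taken as separate mice, as the study's methods describe.

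Cells were barcodes over a UMI cutoff, plus barcodes of at least 500 UMIs that differed from empty droplets (10000 simulations, adjusted p of 0.01, ambient profile from ranks 45000 to 90000). Barcodes with over 30% mitochondrial or 5% hemoglobin UMIs or under 200 genes, and the 7.5% of highest doublet score, were left out. Leiden clustering used 2000 variable genes, 40 principal components, 20 neighbors, resolution 1 and neither the members nor the markers. It was repeated within the epithelial clusters other than the PT. Clusters were named from fixed markers.

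UMIs were summed per library and class (at least 20 cells) and tested with edgeR 4.0.16 (quasi-likelihood, low-count filter, TMM, 3 groups in 1 model, R 4.3.3), and p-values were adjusted by Benjamini-Hochberg over the genes of each fit. Differences between classes had the library as a block. Ratios were compared by exact permutation tests. DESeq2 1.42.0, other cell filters, clusterings and scalings, free-RNA subtraction and leaving out each library were alternatives. The named genes were all members, the 3 genes most like each of Krt7, Krt8, Krt18 and Krt19 (1 of them is not reported here), and called genes of largest change in each list. The scripts were tested on simulated data. Counts of 3 were taken as the floor for genes without control UMIs, and such floors and shares cover counting error only. Replicate numbers were not taken as pairing UIR and UUO libraries, since same-numbered libraries deviated together in some classes and not in others.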

Additional observations from a re-analysis of the deposited data

Results flagged for a closer look

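Of 25 groups of 4 or 5 control libraries tested for a library far from the rest (about 1 in 20 would be found by chance), 3 held one. Krt19 in the loop of Henle was 42.2 CPM in AN2, where the other controls had 0 to 9.29. Krt18 in the distal tubule was 56.6 CPM in AN1 against 17.7 to 25.0, and Krt8 in intercalated cells was 195 CPM in AN1 against 118 to 140.

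UUO exceeded UIR by a test of the difference itself in Krt19 of the distal tubule, by 1.54 on the log2 scale, in a fit that Krt19 entered through the UUO pools. In principal cells the differences were 1.34 for Krt8, 1.30 for Krt18, 2.69 for Krt19 and 1.21 for Krt23, with 1 UUO pool (UUO1), so that they have no UUO replicate and take the spread of the other groups. The change in UIR differed between distal classes and the PT by 0.78 for Krt8, -0.92 for Krt7 and -1.64 for Krt18, and in UUO by 1.68 for Krt8.

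The unnamed clusters held keratin levels above those of the highest control pool of any class, which was 322 CPM for Krt8, 418 for Krt18 and 42.2 for Krt19. In the cluster led by Psca and Mmp7 the medians over libraries in UIR and UUO were 839 and 682 CPM for Krt8 and 430 and 441 for Krt19. In the cluster led by Clu and Spink8 they were 1041 and 1180 for Krt8, 925 and 974 for Krt18, and 277 and 518 for Krt19.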

How the results depend on the processing

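Of the keratin calls of UIR against control, 565 repeats under an alternative passed the test in the same direction and 53 no longer passed. For UUO against control the counts were 550 and 29, and for UUO against UIR 112 and 6. Numbers of calls moved by over 1.5 times in a few settings, and the cause was not tested. For UIR the 23 calls became 14 with only barcodes over the UMI cutoff, 13 with a mitochondrial limit of 15% and 15 with free RNA subtracted by the profile of barcodes of 10 to 100 UMIs. For UUO the 22 calls became 8 with at least 50 cells per pool, where fewer pools were left. The 5 calls of UUO against UIR became 12 with each cell named on its own, 2 at a resolution of 2, 2 with at least 50 cells per pool, 8 with no filter on low counts and 3 with unnamed clusters pooled into the loop of Henle and distal classes, an alternative chosen after seeing the data.

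Leaving out each library in turn gave 21 to 23 calls for UIR, 16 to 22 for UUO and 0 to 7 for UUO against UIR, with 0 without UUO1, which holds the only UUO pool of principal cells. It gave 21 to 25 of the control class differences (22 with all libraries) and 9 to 10 of those of failed-repair cells and thin limb (9). The 3 UIR differences between distal classes and the PT became 1 with loop of Henle and distal tubule alone, 1 with the 15% mitochondrial limit and 2 or 3 without a library. The 1 UUO difference was found without any single library. The count of ratio tests under 0.05 was 0 without any single library. That count says little, since 3 against 4 libraries allow no exact permutation p under 0.0571. With the 15% mitochondrial limit the ratio could not be tested. The median share of UIR loop cells with a Krt8 UMI was 35.8% thinned to 1000 UMIs and 16.9% thinned to 500.

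Direction turned in 5 cases. With free RNA subtracted, Krt7 went to 0.89 (adjusted p = 0.781) in the UIR difference between distal classes and the PT and to 0.28 in the thin limb of injured libraries. It went to 0.66 and 0.68 in the control distal tubule and podocytes against other classes. Both of these are called as higher, where the main fit called neither. With library totals without TMM, Krt8 in the control PT went to -0.22. A fit of UIR and UUO libraries with the replicate number as a block made 5 calls of 22 tested, namely Krt19 in the distal tubule and, newly, Krt7 (0.42) and Krt19 (0.51) in the loop of Henle and Krt8 (0.40) and Krt18 (0.48) in intercalated cells. The numbers were not taken as pairing, since the 3 same-numbered correlations were not all over 0.1 in the PT (-0.05 to 0.18), intercalated cells (0.04 to 0.34) and macrophages (-0.05 to 0.53), though they were in the loop of Henle (0.22 to 0.64), T and NK cells (0.15 to 0.58) and endothelial cells (0.13 to 0.58), and in the loop UIR1 and UIR2 each correlated best with the other's number.

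Few UMIs stand behind Krt80, Krt20 outside failed-repair cells and the keratins of PT pools in UUO, which hold 44 to 92 cells. The UIR and UUO libraries have no stated run, so a run and the injury cannot be told apart.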
